A study of Mus musculus with 4 samples.

Results

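Myeloid C-type lectin receptors are cell surface proteins by which monocytes, macrophages, dendritic cells and neutrophils bind sugars and lipids of microbes and of damaged cells. The 9 genes described here, Clec4a1, Clec4a2, Clec4a3, Clec4d, Clec4e, Clec4n, Clec5a, Clec7a and Clec10a, were taken by symbol, with earlier results of these data known, and each had a row of its own among the 24706 genes of the 4 expression files. The libraries were labelled as mouse myeloid cells, 2 as wt and 2 as cko, with 1 library per replicate. The cko mice carry a floxed Pdcd1 allele (PD-1f/f) and LysM-Cre, a Cre recombinase placed in the lysozyme locus Lyz2, and thus expressed in granulocytes as well as monocytes and macrophages. The wt group is named PD-1f/f without Cre in the study's figures and wild-type mice in its methods. The sequenced material is described as CD11b+ cells sorted from the liver at postnatal day 3 and, in the methods, as liver RNA of day P2, and no source used here settles which. Whether a library came from 1 pup or a pool of pups is not stated, so that p-values measure the spread between libraries.

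The receptors differ in the signal they send. Clec4e (Mincle), Clec4d (MCL) and Clec4n (Dectin-2) have short tails and associate with the Fc receptor gamma chain, encoded by Fcer1g, whose tyrosine motif recruits the kinase Syk. Clec7a (Dectin-1), the receptor for fungal beta-glucan, carries a tyrosine motif of its own, and Clec5a (MDL-1) signals through the adaptor DAP12, encoded by Tyrobp. Syk then acts through Card9, Bcl10 and Malt1 on NF-κB and cytokine genes. Clec4a2 (DCIR) instead holds an inhibitory tyrosine motif that recruits the phosphatases encoded by Ptpn6 and Ptpn11, which are also those that PD-1 recruits. Clec4a1 and Clec4a3 are further members of the DCIR family, and Clec10a (MGL1) binds galactose-type sugars on macrophages and dendritic cells.

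Of the genes, 6 lie in a cluster on mouse chromosome 6 within 368 kb (GRCm38), with other genes between some of them. Their order is Clec4a1 (122921848 to 122934619), Clec4a3 (122952515 to 122969875), Clec4a2 (123106428 to 123143999), Clec4n (123229843 to 123247021), Clec4d (123262111 to 123275265) and Clec4e (123281789 to 123289870). Clec4e is the only one of these 6 on the minus strand. On the same chromosome, both on the minus strand, are Clec7a (129461591 to 129472779), which the files class as a polymorphic pseudogene, and Clec5a (40574894 to 40585821). Clec10a lies on chromosome 11 from 70156197 to 70170834. The principal transcripts of the 6 members in the cluster have 6 exons each, with coding sequences of 209 codons (Clec4n) to 245 codons (Clec4a1). The sequence before the start site is shown for Clec4e and Clec4d, the nearest neighbours, and for Clec5a and Clec4a2, whose levels differed from theirs. It was taken from the RefSeq promoter table (GRCm38.p6), which matched 7 of the 9 genes, and is given 5′ to 3′ on the strand of each gene, from base -150 up to the start site or to any annotated exon before it. For Clec4a2 the RefSeq start site lies inside the gene as GENCODE places it, downstream of its first base, so that its stretch is not the sequence before the whole gene. Capitals mark matches, on either strand, of the 6-letter PU.1 core GAGGAA and of the 8-letter C/EBP motif TTGCNNAA.
Clec4e, chr6:123289872-123290021, minus strand: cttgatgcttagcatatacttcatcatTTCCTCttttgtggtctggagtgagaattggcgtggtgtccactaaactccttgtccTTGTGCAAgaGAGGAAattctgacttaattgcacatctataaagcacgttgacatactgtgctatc
Clec4d, chr6:123261957-123262106, plus strand: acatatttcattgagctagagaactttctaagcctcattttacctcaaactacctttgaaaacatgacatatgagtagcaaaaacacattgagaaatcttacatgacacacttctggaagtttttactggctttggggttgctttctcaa
Clec5a, chr6:40585822-40585955, minus strand: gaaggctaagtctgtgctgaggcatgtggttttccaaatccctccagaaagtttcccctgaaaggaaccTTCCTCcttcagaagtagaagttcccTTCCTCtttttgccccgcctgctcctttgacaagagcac
Clec4a2, chr6:123122540-123122621, plus strand: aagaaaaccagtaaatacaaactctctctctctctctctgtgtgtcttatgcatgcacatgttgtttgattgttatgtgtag

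In the full windows of 300 bases (250 before and 50 after the start site), GAGGAA was found for 6 of the 7 matched genes, with no match in the internal window of Clec4a2, and in 28.3% of all 32851 windows. TTGCNNAA was found for Clec4e alone, between bases -66 and -59, and in 10.8% of all windows. These 2 motifs were added after the values and the sequences had been seen. Of the motifs listed earlier, AP-1 (TGANTCA, 7.81% of all windows) was found in Clec4a2, downstream of the start site at bases 32 to 38. No window of the 7 genes held GAGGAAGT (a longer PU.1 motif, 3.2% of all windows), TTGCNNNAA (9.56%) or the NF-κB consensus (8.46%). Matches describe letters in these windows only.

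The libraries held 17691505 to 22212407 counted reads, worked out from the FPKM values (read counts relative to exon length and library total). For Pdcd1, the gene the floxed allele targets, the level was 28.5 and 34.7 FPKM in wt and 17.1 and 21.4 FPKM in cko (log2 fold change -0.69, adjusted p = 0.218, limma), so its transcripts remained in both cko libraries. Lyz2 had 31306 and 32147 FPKM in wt against 10422 and 8127 FPKM in cko. Wt replicate 2 held Y-linked transcripts (Ddx3y at 24.9 FPKM) and Xist at 0.0119 FPKM, whereas Ddx3y had at most 1 read in the other libraries, so that the groups were not matched for this signal of sex. Of the 7 pan-myeloid markers, all detected, 4 had a log2 fold change above 0 and 3 below. Ptprc stood at 58.1 to 75.1 FPKM, with overlapping groups. Itgam, which encodes CD11b, was slightly lower in both cko libraries (51.4 and 54.3 FPKM in wt, 48.5 and 49.4 in cko). Lyz2 was lower too, but the cko mice carry Cre at this locus. For Lyz2, a change in cells and an effect of the inserted Cre cannot be told apart. Spi1 (77.3 and 126 FPKM in wt, 264 and 145 in cko) and Cd68 (26.3 and 32.0 in wt, 37.7 and 69.3 in cko) were higher in both cko libraries. Cko replicate 2 stood apart from cko replicate 1 for most receptor genes, and the fold changes of the tested receptor genes are also given without it.

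All 9 genes had reads in every library, with levels from 0.124 FPKM (Clec10a, wt replicate 1) to 161 FPKM. In wt, Clec4a2 and Clec5a led, with means of 142.5 ± 25.7 and 109.0 ± 22.7 FPKM (SD, n = 2). Their ranges touched, but Clec4a2 was the higher of the pair in both wt libraries. Clec7a and Clec4d followed at 29.6 ± 2.66 and 28.0 ± 13.2 FPKM, with overlapping ranges. Clec4e (16.1 ± 3.44), Clec4n (15.6 ± 8.42) and Clec4a1 (10.5 ± 0.744 FPKM) came next, with overlapping ranges between Clec4n and the other 2. Clec4a3 at 0.914 ± 0.387 and Clec10a at 0.154 ± 0.0417 FPKM were the lowest. In cko replicate 1 the order began with Clec5a, Clec4a2 and Clec4d, and in cko replicate 2 with Clec4d, Clec5a and Clec4n.

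**Figure D1:**
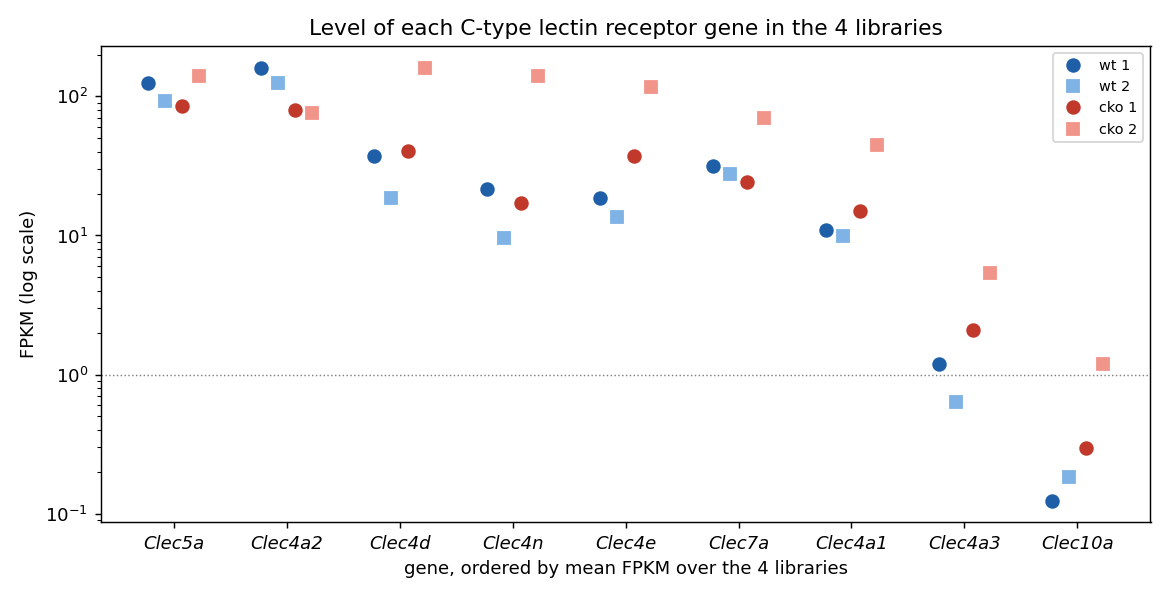
FPKM of the 9 receptor genes (vertical log axis) in wt replicates 1 and 2 and cko replicates 1 and 2, with each point 1 library and the dotted line at 1 FPKM. Clec4a2 is the gene whose cko points, at 80.4 and 76.0 FPKM, both lie below its wt points, and cko replicate 2 holds the highest value of every other gene.

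Clec4e, the receptor for mycobacterial cord factor, had 18.5 and 13.7 FPKM in wt replicates 1 and 2 and 37.0 and 117 FPKM in cko replicates 1 and 2. The read counts behind them were 2044 and 1277 in wt and 3447 and 10290 in cko. Both cko libraries lay above both wt libraries, and cko replicate 2 was 3.16 times as high as cko replicate 1. The ratio of the group means was 4.79. In limma (moderated linear models on log2(FPKM + 1), which understates the change of low genes), its log2 fold change was 1.99 (SE 0.52, 95% interval 0.68 to 3.29), with an unadjusted p of 0.0103 and an adjusted p of 0.214 over all 10779 genes tested, those whose mean reached 1 FPKM. Across the 15 fits its adjusted p ranged from 0.0999 to 0.615. Without cko replicate 2 the log2 fold change was 1.17 and without wt replicate 2 it was 1.78. Since these are bulk libraries, fewer or more cells of a type and a different amount of RNA per cell cannot be told apart.

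Clec4d, which forms a receptor complex with Clec4e and is encoded 6523 bp from it, had 37.4 and 18.6 FPKM in wt and 40.5 and 161 FPKM in cko. The cko libraries lay above the wt libraries, but cko replicate 1 by a small margin, which was lost when libraries were rescaled by median-of-ratios factors. Its log2 fold change was 1.58 (SE 0.67, 95% interval -0.09 to 3.25, adjusted p = 0.320, limma), and 0.60 without cko replicate 2. Clec4n, the receptor for fungal mannan, had 21.5 and 9.62 FPKM in wt and 17.2 and 140 FPKM in cko. Here the groups overlapped, since cko replicate 1 lay between the wt libraries, and cko replicate 2 was 8.14 times as high as cko replicate 1. Its log2 fold change of 1.71 (SE 0.95, 95% interval -0.66 to 4.08, adjusted p = 0.416, limma) became 0.23 without cko replicate 2. By the distance between library-centred log2(FPKM + 1) profiles over the 4 libraries, Clec4d and Clec4e were each other's nearest member, and Clec4d was the nearest member of Clec4n.

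Clec4a2, the inhibitory receptor, went the other way. It had 161 and 124 FPKM in wt (10444 and 6848 reads) and 80.4 and 76.0 FPKM in cko (4411 and 3936 reads). Both cko libraries were below both wt libraries, and the cko libraries differed from each other 1.06 times in Clec4a2, against 3.16 times in Clec4e. The log2 fold change was -0.85 (SE 0.17, 95% interval -1.27 to -0.42), with an unadjusted p of 0.00316 and an adjusted p of 0.199 (limma). It was -0.81 without cko replicate 2 and -1.03 without wt replicate 2, and over all 15 fits it lay between -1.03 and -0.64 with adjusted p-values from 0.134 to 0.615.

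Clec4a1 and Clec4a3, of the same family, stood higher in both cko libraries. Clec4a1 had 11.0 and 9.96 FPKM in wt and 15.0 and 44.9 FPKM in cko, with both cko libraries above both wt libraries. Its log2 fold change was 1.24 (SE 0.48, 95% interval 0.05 to 2.44, adjusted p = 0.291, limma), and 0.48 without cko replicate 2. Clec4a3 had 1.19 and 0.641 FPKM in wt and 2.09 and 5.37 FPKM in cko, again without overlap of the groups. It rested on 35 and 16 reads in wt and 52 and 126 reads in cko. In RPM, which scales reads by the library's total alone, the levels with their 95% Clopper-Pearson intervals (for counting error alone) were 1.58 (1.10 to 2.19) and 0.850 (0.486 to 1.38) in wt and 2.77 (2.07 to 3.64) and 7.12 (5.93 to 8.48) in cko, so that the intervals of wt replicate 1 and cko replicate 1 overlapped. Its log2 fold change was 1.23 (SE 0.40, 95% interval 0.24 to 2.22, adjusted p = 0.251, limma), and 0.71 without cko replicate 2. Clec4a1 and Clec4a3 were each other's nearest member by profile.

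Clec5a, which marks granulocytes and monocytes, had 125 and 93.0 FPKM in wt and 85.5 and 140 FPKM in cko. The groups overlapped, with a log2 fold change of 0.02 (SE 0.28, 95% interval -0.67 to 0.71, adjusted p = 0.978, limma) that was -0.33 without cko replicate 2 and changed sign under rescaling of the libraries, to -0.09 by median-of-ratios factors and -0.12 by quantile normalization. The interval holds changes of either sign. Clec7a had 31.4 and 27.7 FPKM in wt and 24.2 and 69.8 FPKM in cko. Its cko libraries lay on either side of the wt libraries, with a log2 fold change of 0.47 (SE 0.47, 95% interval -0.70 to 1.64, adjusted p = 0.641, limma) that was -0.28 without cko replicate 2. Clec10a fell short of a mean of 1 FPKM and was not among the tested genes. It had 0.124 and 0.183 FPKM in wt (8 and 10 reads) and 0.294 and 1.19 FPKM in cko (16 and 61 reads), and at this depth the RPM intervals of wt replicate 2 (0.255 to 0.977) and cko replicate 1 (0.488 to 1.39) overlapped. With no filter on low values its log2 fold change was 0.55 (adjusted p = 0.649, limma).

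**Figure D2:**
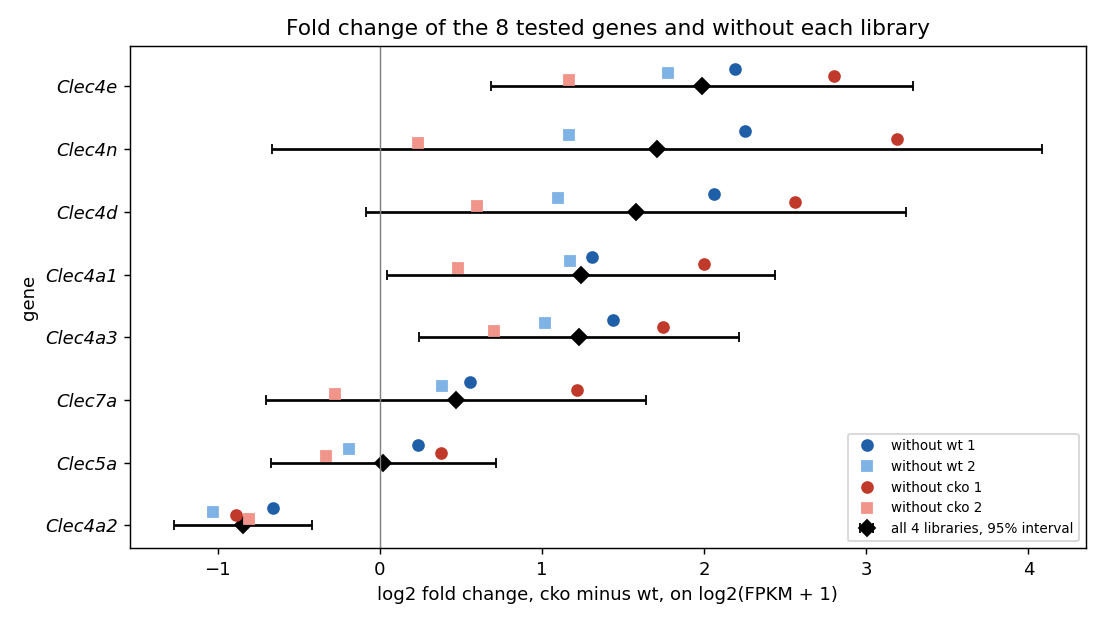
Log2 fold change of the 8 tested genes, cko minus wt, on log2(FPKM + 1). Diamonds with bars are the fit on all 4 libraries with its 95% interval, and coloured points are the fits that each left out 1 library. Without cko replicate 2 the values of Clec4n, Clec4d, Clec4a1 and Clec7a moved to 0.23, 0.60, 0.48 and -0.28, whereas Clec4e stood at 1.17 and Clec4a2 at -0.81.

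Counted over the 8 tested members, 7 log2 fold changes were above 0 and 1 was below, with a median of 1.23 against a median of 0.09 over all tested genes. Without cko replicate 2 the members' median was 0.36. A log2 fold change above 1, at any p, was seen for 5 members, Clec4a1, Clec4a3, Clec4d, Clec4e and Clec4n, and for 3.96% of tested genes. At |log2FC| of at least 1 with an adjusted p under 0.05, 0 members passed by limma on FPKM, where 0% of tested genes did. By voom on reads 0 members passed too, whereas Lyz2, which is not a member, did (log2 fold change -1.78, adjusted p = 0.0176, voom). The wider threshold of |log2FC| above 1 with an unadjusted p under 0.01 was passed by 0 members in the limma fit on FPKM. In that fit 1.88% of tested genes passed as higher and 0.408% as lower. With voom it was passed by 1 member, Clec4e, and the share of all genes is not given for voom. An unadjusted p under 0.05 was reached by 3 higher members, Clec4a1, Clec4a3 and Clec4e, where 11.4% of tested genes were called higher, and by 1 lower member, Clec4a2, where 4.95% were called lower. Without wt replicate 2, the library with Y-linked transcripts, the log2 fold changes of Clec4a1, Clec4a3, Clec4e and Clec4a2 were 1.17, 1.02, 1.78 and -1.03. Without cko replicate 2 they were 0.48, 0.71, 1.17 and -0.81. Calls by p are not given here for these fits, which leave a single library in a group. Their counts by p are listed only with the dependence on processing, without a share of all genes. Both cko libraries lay above both wt libraries for 4 tested members (33.6% of tested genes) and below them for 1 (18% of tested genes). With 2 libraries per group, 0.333 is the smallest p of an exact two-sided permutation test. Any gene whose groups do not overlap reaches it, here Clec4a1, Clec4a2, Clec4a3, Clec4d, Clec4e and the untested Clec10a.

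The opposite course of Clec4e and Clec4a2 was also read within each library, where the scale of the library cancels. The ratio of Clec4e to Clec4a2, in FPKM, was 0.115 and 0.110 in wt and 0.461 and 1.54 in cko. The wt libraries thus lay close together and both cko libraries far above them, by 2.90 on the log2 scale (means -3.15 ± 0.0493 and -0.25 ± 1.23, SD, n = 2, exact two-sided permutation p = 0.333, the smallest this design allows). This pair was chosen after its values were seen. Of the summed level of the 9 genes, Clec4a2 made up 39.5% and 41.8% in wt and 26.6% and 10.1% in cko. Clec4e, Clec4d and Clec4n together made up 19.0% and 14.1% in wt and 31.4% and 55.3% in cko. The sum itself, 407 and 298 FPKM in wt and 302 and 755 FPKM in cko, overlapped between the groups.

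**Figure D3:**
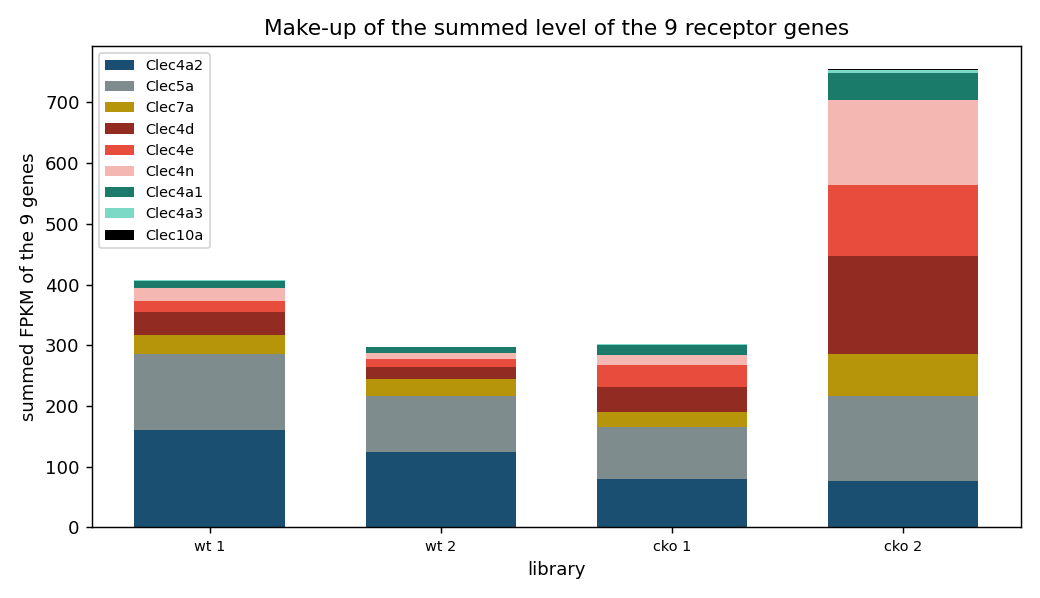
Summed FPKM of the 9 receptor genes in each library (bar height), divided by gene. Clec4a2 takes the largest share in both wt libraries (39.5% and 41.8%), while the 3 red segments, Clec4d, Clec4e and Clec4n, reach 31.4% and 55.3% in cko replicates 1 and 2.

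Along the chromosome 6 cluster, levels did not follow position. The annotation places 9 C-type lectin genes there, and the 3 that are not members, Clec4a4, Clec4b1 and Clec4b2, were low. Clec4a4 had 0.0685 to 0.696 FPKM and Clec4b1 0 to 0.649 FPKM. Clec4b2 had 1.99 and 3.39 FPKM in wt and 1.86 and 0.963 FPKM in cko, below the wt libraries in both, with a log2 fold change of -0.61 (adjusted p = 0.381, limma). It rested on few reads, 52 and 75 in wt and 41 and 20 in cko, and cko replicate 1 was close to wt replicate 1. Clec4a2 and Clec4b2, the 2 tested genes with lower cko values, lie next to each other among the 9, with Clec4a1 and Clec4a3 on one side and Clec4n, Clec4d and Clec4e on the other. Since these genes are related in sequence, reads could be assigned to the wrong copy. Of the words of 50 bases in the transcripts of Clec4a2, 6.83% also occur in transcripts of other genes, mostly Clec4a4 and Clec4b1, and for Clec10a 9.02%, mostly Mgl2. For Clec4n the share was 0.686%, and no such word was shared for the other 6 members. No other annotated gene overlaps a member except Gm44132, a processed pseudogene on the same strand within Clec4a2.

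**Figure D4:**
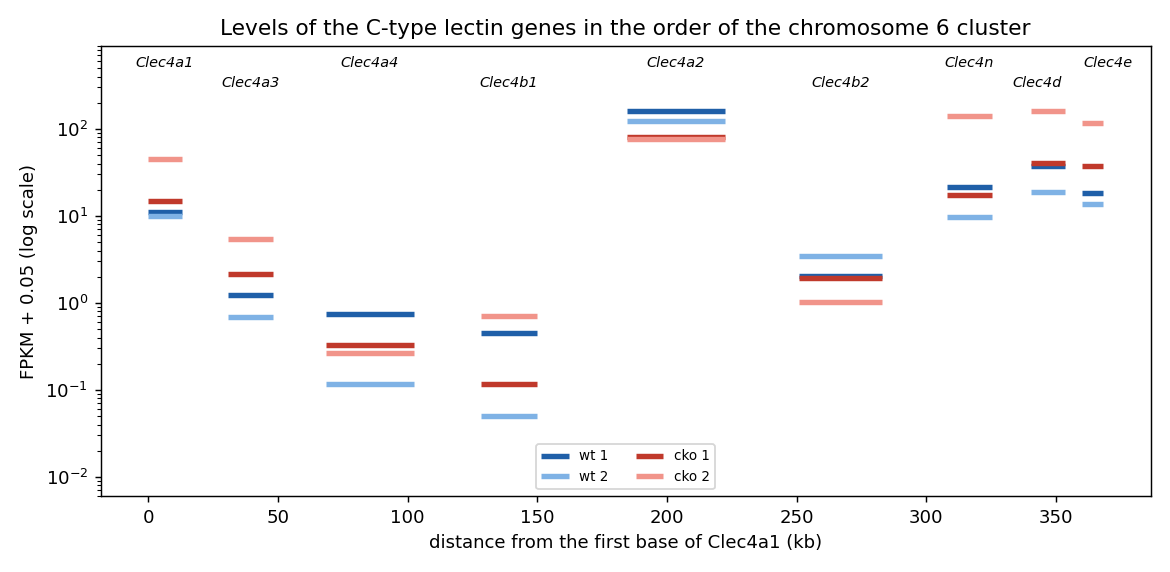
FPKM + 0.05 (vertical log axis) of the 9 C-type lectin genes of the chromosome 6 cluster in each library, drawn at their distance from the first base of Clec4a1 in kb, with each bar as long as its gene. The cko bars lie below the wt bars in Clec4a2 and Clec4b2 and above them in Clec4a1, Clec4a3, Clec4d and Clec4e.

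The adaptors and kinases through which these receptors signal were mostly higher in cko by small amounts. Of the 16 tested adaptor and kinase genes, 14 had a log2 fold change above 0 and the median was 0.40, beside 0.09 over all genes. Of these 16, 6 reached an unadjusted p under 0.05, each higher in cko (11.4% of all tested genes), and none an adjusted p under 0.05 (limma). They included the kinase gene Lyn (log2 fold change 0.60, adjusted p = 0.259, 0.34 without cko replicate 2), Malt1 (0.72, adjusted p = 0.283, 0.42 without cko replicate 2), Prkcd (0.51, adjusted p = 0.246), Syk (0.48, adjusted p = 0.261) and Vav1 (0.43, adjusted p = 0.250). Syk had 15.3 and 17.3 FPKM in wt and 21.2 and 25.0 FPKM in cko. Card9 had 9.82 and 9.45 FPKM in wt and 15.4 and 11.6 FPKM in cko, without overlap (0.44, adjusted p = 0.325). The adaptors themselves were not higher in this way. Hcst, a further adaptor gene of the list, had 37.4 and 43.2 FPKM in wt and 32.0 and 34.4 FPKM in cko, lower in both. Fcer1g had 115 and 297 FPKM in wt and 348 and 157 FPKM in cko, and Tyrobp 195 and 140 FPKM in wt and 115 and 152 FPKM in cko, both with overlapping groups.

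Of the 3 phosphatase genes, Ptpn11, which encodes SHP-2, had 5.02 and 5.88 FPKM in wt and 10.4 and 10.9 FPKM in cko (log2 fold change 0.85, SE 0.17, unadjusted p = 0.00268, adjusted p = 0.199, limma), and its value was 0.83 without cko replicate 2. Ptpn6 had 226 and 223 FPKM in wt and 250.3 and 295 FPKM in cko (0.28, adjusted p = 0.396), and Inpp5d overlapped between the groups. Of 13 genes known to be induced through these receptors, 8 were tested. All 8 had a log2 fold change above 0, with a median of 1.47, beside 0.09 over all genes. An unadjusted p under 0.05 was reached by 5, each higher, where 11.4% of all tested genes were called higher. These were Cxcl2, Il1b, Egr3, Tnf and Nlrp3 (adjusted p from 0.199 to 0.250, limma). Il1b had 98.1 and 43.2 FPKM in wt and 151 and 594 FPKM in cko, and Nlrp3 4.86 and 4.47 FPKM in wt and 7.46 and 14.9 FPKM in cko. The median of these 8 genes was 0.83 without cko replicate 2. Many other stimuli induce them too. The lists were drawn up with earlier results of these data known.

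**Figure D5:**
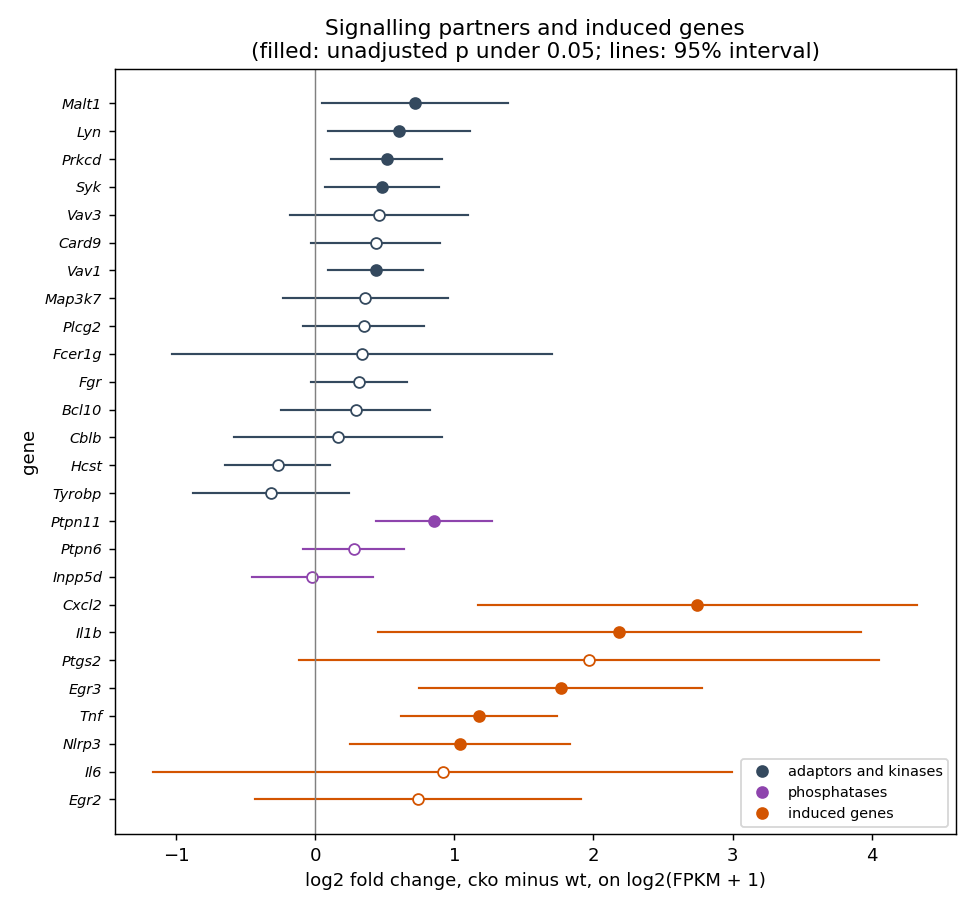
Log2 fold change, cko minus wt, of the tested adaptor and kinase genes (15 of 16 drawn), phosphatase genes (3) and induced genes (8), with 95% intervals from limma. Filled points have an unadjusted p under 0.05. Malt1 stands at 0.72 and Syk at 0.48 in the first group, Ptpn11 at 0.85 among the phosphatases, and Cxcl2 at 2.75 among the induced genes.

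Other genes with a C-type lectin-like domain gave a mixed picture. Of 42 listed genes, 41 were in the files and 22 were tested, 10 with a log2 fold change above 0 and 12 below, with a median of -0.07 (-0.22 without cko replicate 2). An unadjusted p under 0.05 was reached by 4 higher genes (Cd302, Cd69, Clec2i and Olr1) and by 2 lower genes (Clec12a and Klrd1), beside 11.4% and 4.95% of all tested genes, and by none after adjustment (limma). Clec12a, like Clec4a2 an inhibitory receptor of myeloid cells, had 101 and 95.8 FPKM in wt and 58.3 and 54.4 FPKM in cko (log2 fold change -0.79, SE 0.14, 95% interval -1.13 to -0.46, unadjusted p = 0.00139, adjusted p = 0.183, limma). It was -0.74 without cko replicate 2. Cd302, a lectin-like receptor of monocytes and macrophages, had 19.1 and 18.0 FPKM in wt and 24.5 and 47.9 FPKM in cko (0.85, adjusted p = 0.277, 0.38 without cko replicate 2). Clec4f, a receptor of Kupffer cells, and Ly75 (DEC-205) overlapped between the groups, with log2 fold changes of -0.14 and -0.26.

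Markers of cell types moved beside these genes, and their part in the differences was not tested. Of 11 tested monocyte markers, 9 were above 0 and 2 (F13a1 and Nr4a1) had an unadjusted p under 0.05 (limma), both higher. Of all tested genes, 11.4% were called higher at that p. The summed level of the monocyte list was 908 and 1148 FPKM in wt and 1538 and 1197 FPKM in cko. Its most abundant gene, Chil3, overlapped between the groups (322 and 599 FPKM in wt, 962 and 437 in cko). Ly6c2, the next most abundant, was lower in both cko libraries (343 and 360 FPKM in wt, 333 and 315 in cko). The median log2 fold change of the list was 0.33, and 0.09 without cko replicate 2. Csf1r, the receptor of the macrophage growth factor, had 40.9 and 33.0 FPKM in wt and 45.6 and 113 FPKM in cko. Of 12 tested macrophage markers, 6 were above 0 and 6 below (median 0.04, -0.30 without cko replicate 2 and 0.28 without cko replicate 1), with a summed level of 366 to 507 FPKM in wt and 429 to 730 FPKM in cko. All 10 late neutrophil markers had groups without overlap, 7 lower and 3 higher (Csf3r, Cxcr2 and Il1r2), where 18% and 33.6% of all tested genes did so. Their sum was 65679 to 89318 FPKM in wt and 42309 to 45847 FPKM in cko. The early neutrophil list summed to 73799 to 74434 FPKM in wt and 51857 to 67120 FPKM in cko, with Ngp, Camp and Ltf the most abundant. By gene, 5 of its 10 markers had a log2 fold change above 0 and 5 below, with a median of 0.06. Groups did not overlap for 4 higher and 2 lower genes of this list. Of the dendritic cell list 4 of 12 genes were tested, with Flt3, Xcr1, Siglech and Clec9a below 1 FPKM in every library, and its sum was 39.1 to 48.3 FPKM in wt and 34.8 to 52.1 FPKM in cko. Erythroid markers had a log2 fold change below 0 in 9 of 9 tested genes, with a sum of 2342 to 3728 FPKM in wt and 1428 to 1512 FPKM in cko.

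Among the remaining marker lists, lymphocyte markers were below 0 for 6 of 7 tested genes. Their sums were 63.6 to 76.1 FPKM in wt and 28.8 to 40.0 FPKM in cko. Hepatocyte markers were below 0 for 6 of 7 (sums of 85.1 to 144 and 59.8 to 71.9 FPKM, in the same order). Mast cell, basophil and eosinophil markers were below 0 for 4 of 7 (147 to 311 and 125 to 147 FPKM), endothelial and stromal markers for 4 of 7 (18.4 to 18.7 and 15.5 to 16.8 FPKM), and megakaryocyte markers for 2 of 2 (10.4 to 25.1 and 10.1 to 17.7 FPKM). Against the sum of its list, Stab2, a scavenger receptor of sinusoidal endothelium, had 0.319 and 0.315 FPKM in wt and 3.61 and 4.76 FPKM in cko. No marker was at 0 in all 4 libraries.

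The mean profile of the 8 tested members over the 4 libraries was low in wt replicate 2, near the middle in wt replicate 1 and cko replicate 1, and high in cko replicate 2, at -0.71, -0.21, -0.24 and 1.16 in log2 units from each gene's mean. The 5 other genes whose library-centred profile lay nearest to it, by Euclidean distance over the 4 libraries, were Lpl (lipoprotein lipase), Rasgef1b, Tgif1, Ms4a4a and Gm37468, at distances of 0.0711 to 0.137. Lpl had 2.04 and 1.18 FPKM in wt and 2.12 and 7.40 FPKM in cko. Clec4a2, highest in wt replicate 1 and lowest in cko replicate 2, lay farthest from any other member, at a distance of 1.03 from Clec5a.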

How the data were processed

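Gene expression was measured by RNA-seq in 4 libraries, grouped by their titles as wt or cko. The deposited tables give FPKM for each gene, with a table for each library and no scaling between libraries. The submitters' processing notes name Bowtie2 2.2.3, TopHat2 2.0.12, HTSeq 0.6.0 and the build mm9, whereas 92.61% of the gene positions in the files were identical to GENCODE M21 (GRCm38), which was used here. Whether counting used strand is not given in the sources used here. Reads were recovered as whole multiples (within 0.05 reads) of what a single read adds, in 100% of the single-exon values checked and for 91.54% of genes, including all 9 members.

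Differences were fitted across all 10779 genes whose mean reached 1 FPKM by limma 3.58.1 in R 4.3.3 (eBayes with a trend) on log2(FPKM + 1), with Benjamini-Hochberg adjustment. Alternatives covered pseudocounts, filters, scaling, a replicate block, voom on reads (mean reads from 10 upwards), and leaving out each library. The log2 ratio of mean FPKM was added after the values were seen. The fit was also run on simulated reads, with the same spread in both groups, taken from the wt libraries. That run does not cover the wider spread of most members between the cko libraries, and its outcome is not given here. The members and lists were chosen with earlier results of these data known. Named genes are the members, Pdcd1 and Lyz2, list genes with an unadjusted p under 0.05 or among the 4 most abundant, and the 5 genes of nearest profile. Others named (Itgam, Card9, Hcst, Ly75, sex-linked, cluster and dendritic cell genes) were chosen after their values were seen. Protein features were not analysed here, and some list genes that are counted are not reported by name or drawn. Python 3.11.15 and matplotlib 3.10.9 were used for tables and figures.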

Additional observations from a re-analysis of the deposited data

How the results depend on the processing

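The directions of Clec4a1, Clec4a3, Clec4d, Clec4e and Clec4n (above 0) and of Clec4a2 (below 0) were kept in every fit that tested them, with Clec4e between 1.17 and 2.80. The exceptions were Clec5a, at -0.0857 with median-of-ratios factors, -0.12 with quantile normalization and from -0.33 to 0.37 with 1 library left out, and Clec7a, from -0.28 to 1.21 with 1 library left out. Fits without a library leave 1 group with a single library, which is taken to vary like the others. For these fits the share of all tested genes past a p threshold is not given. Their counts of members by p, listed next, therefore cannot be read as a result about the members. Members past |log2FC| above 1 with an unadjusted p under 0.01 numbered 0, but 1 (Clec4e) with a pseudocount of 0.1, a minimum mean of 5 FPKM, quantile normalization, erythroid and hepatocyte markers removed or voom, and 0 to 6 with 1 library left out, the 6 without cko replicate 1. An unadjusted p under 0.05 held for 4 members, and for 1 to 7 with 1 library left out (1 without wt replicate 2, 2 without cko replicate 2, 7 without cko replicate 1). Groups without overlap numbered 5, and 4 with median-of-ratios factors (Clec4d then overlapped). With 1 library left out they numbered 5 to 8 (8 without cko replicate 1). There 1 library stands against 2, and groups separate more easily by construction. These counts therefore cannot be compared with the 5 from all libraries, and the share of all genes is not given for them. The cause of the other changes between fits was not tested. Removal of erythroid and hepatocyte markers moved the median of all genes from 0.09 to 0.26. Clec10a was tested only with no filter (0.55) and by voom (1.91). The replicate block left 4 members with an unadjusted p under 0.05, Clec4e at 1.99 (adjusted p = 0.330, limma), and changed no call. No source says that replicate numbers pair libraries, and the differences between replicates 1 and 2 correlated across genes at -0.163 between the groups. As log2 ratios of mean FPKM, Clec4a3 stood at 2.03 and Clec10a at 2.27.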
